A study of Mus musculus with 4 samples.

Results

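The Wnt ligands, receptors and antagonists were taken as every gene of the counts table whose symbol was Wnt, Fzd, Sfrp, Dkk or Rspo followed by a number, without Fzd3 and Fzd6, plus Dvl1 to Dvl3, Lrp5, Lrp6, Axin1, Axin2, Lef1, Tcf7, Tcf7l1, Tcf7l2, Ror1, Ror2 and Ryk. This rule found 52 of the 19465 genes. They comprised 19 Wnt ligands, 4 R-spondins, 8 secreted antagonists, 7 Frizzled receptors, 5 co-receptors, 5 Dishevelled and Axin genes and 4 TCF/LEF transcription factors.

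Gene probes were counted on barcoded spots over coronal sections of fixed, paraffin-embedded brain, trimmed to show the striatum, from 4 mice with the Visium CytAssist assay. The labels give 2 Celsr3 wild-type and 2 Celsr3 heterozygous (HZ) mice, none of them treated. Celsr3 encodes an adhesion receptor of the cadherin family. Strain, age, sex and the nature of the Celsr3 allele are not given in the sources used here.

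Wnt ligands are lipid-bearing secreted proteins that bind Frizzled receptors and, with Lrp5 or Lrp6, stop the Axin complex from destroying beta-catenin, which then acts with TCF/LEF factors on target genes. Ror and Ryk receptors carry other branches of the response, Sfrp and Dkk proteins act outside the cell to limit it, and R-spondins raise it by keeping Frizzled receptors on the surface. In the brain the pathway patterns the embryonic forebrain and goes on to act at synapses, in blood vessels and in glia.

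The deposited spots carried 1 of 4 barcode endings, called barcode sets 1 to 4 here, and the labels tie 0 of these 4 to a mouse or genotype. Heterozygous and wild-type mice were therefore not compared, and each set stands for 1 library with no replicate and no test. The sets held 3055, 2808, 3444 and 3294 spots and between 90752475 and 174761560 counts, and 1613 of the 4744 different barcodes occurred in all 4 sets. Spots were clustered over the 4 sets together, and clusters were joined into areas by marker genes fixed for each area, or are called by their leading genes. A total of 16 areas were held by at least 2 sets with 30 or more spots each. The thalamic-marker area was held by sets 1 and 4 only, with 149 and 298 spots, and the choroid-plexus area of set 2 lacked choroid markers, whose summed level there was 266 CPM (counts per 1000000 counts) against 62535 to 152065 CPM in the other sets. Striatal markers summed to between 18267 and 20479 CPM in the striatal-marker area and to between 899 and 1241 CPM elsewhere.

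A level is a gene's counts in an area and set per 1000000 counts of all genes there. A member is called higher in an area where log2(CPM + 1) exceeded that of all other spots of the same set by at least 1, which is 2-fold, in every set that held the area. The call covers genes whose mean over sets reached 1 CPM, namely 13773 genes and 43 of the 52 members. The other 9 members, Dkk1, Dkk4, Wnt1, Wnt3a, Wnt8a, Wnt8b, Wnt9b, Wnt10b and Wnt11, stayed below it. Intervals are exact 95% intervals for counting error only, and levels of different genes are not compared because probes differ. Within a spot, fewer cells of a type and less RNA per cell cannot be told apart.

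Promoter sequences were available for 37 members, with 45 start sites, from RefSeq on mouse build GRCm38.p6. Among the members 4 pairs were chromosomal neighbours, and these were Wnt6 with Wnt10a on chromosome 1, Wnt3a with Wnt9a and Wnt9b with Wnt3 on chromosome 11, and Wnt10b with Wnt1 on chromosome 15. The 250 bases before the start of the thalamic genes Wnt3, Wnt9b, Tcf7l2 and Lef1 are shown first because these 4 members were high in the same area, with each CG pair in capitals. Wnt3 lies on the plus strand (chr11:103773925-103774174), Wnt9b on the minus strand (chr11:103749822-103750071), the first start of Tcf7l2 on the plus strand (chr19:55741560-55741809) and the first start of Lef1 on the plus strand (chr3:131110047-131110296). Each is written 5′ to 3′ on the strand of its gene.
Wnt3: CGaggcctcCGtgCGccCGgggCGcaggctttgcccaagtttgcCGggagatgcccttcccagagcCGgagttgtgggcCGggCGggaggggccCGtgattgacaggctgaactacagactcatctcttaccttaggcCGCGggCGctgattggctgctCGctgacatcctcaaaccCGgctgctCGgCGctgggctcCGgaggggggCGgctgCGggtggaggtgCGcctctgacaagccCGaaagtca
Wnt9b: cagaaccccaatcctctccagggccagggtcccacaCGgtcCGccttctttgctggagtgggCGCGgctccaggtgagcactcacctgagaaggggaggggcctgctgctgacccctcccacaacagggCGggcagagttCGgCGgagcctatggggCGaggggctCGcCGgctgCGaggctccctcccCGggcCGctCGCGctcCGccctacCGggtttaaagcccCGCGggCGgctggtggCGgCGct
Tcf7l2: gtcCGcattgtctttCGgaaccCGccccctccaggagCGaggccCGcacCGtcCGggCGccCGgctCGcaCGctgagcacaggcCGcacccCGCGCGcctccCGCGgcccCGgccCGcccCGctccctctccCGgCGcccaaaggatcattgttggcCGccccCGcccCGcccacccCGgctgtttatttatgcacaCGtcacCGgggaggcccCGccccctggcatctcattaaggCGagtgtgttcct
Lef1: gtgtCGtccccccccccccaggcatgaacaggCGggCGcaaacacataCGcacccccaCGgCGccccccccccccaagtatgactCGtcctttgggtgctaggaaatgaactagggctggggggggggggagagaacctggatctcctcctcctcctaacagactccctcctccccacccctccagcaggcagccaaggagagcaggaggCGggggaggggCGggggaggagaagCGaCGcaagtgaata
The stretches of Wnt3 and Wnt9b held 22 CG pairs each, that of Tcf7l2 held 30 and that of Lef1 held 11. Over windows of 300 bases, from 250 before the start to 50 after it, the members' windows had a median of 27 CG pairs and 67.7% G or C, beside 15 CG pairs and 57.7% in the windows of all genes of the table. The binding core of TCF/LEF factors, searched as CTTTGAT or CTTTGAA on either strand, was found in 3 of the 45 windows (6.67%), beside 7.37% of the 18502 windows of the table's genes. None of the 4 sequences above held it. The 3 windows were those of Wnt5b, Wnt11 and Dkk1, and only Wnt5b reached 1 CPM. The stretch before one start of Wnt5b on the minus strand (chr6:119449387-119449636) is shown as the example, with the core in capitals from position -71 relative to the start.
Wnt5b: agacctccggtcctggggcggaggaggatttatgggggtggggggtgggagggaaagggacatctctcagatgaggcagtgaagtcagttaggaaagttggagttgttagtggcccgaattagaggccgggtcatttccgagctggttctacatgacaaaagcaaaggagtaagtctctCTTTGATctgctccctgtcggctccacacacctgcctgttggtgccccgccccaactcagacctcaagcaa

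Most members were regional rather than even over the section. At least 1 area had a call for 27 of the 43 members tested, beside 27.4% of all genes tested. By role these were 10 of 12 ligands, 4 of 4 R-spondins, 4 of 6 antagonists, 4 of 7 Frizzled receptors, 1 of 5 co-receptors, 4 of 4 TCF/LEF factors and 0 of 5 Dishevelled and Axin genes. The range of log2(CPM + 1) over the 7 areas held by all sets, choroid plexus left out, had a median of 3.39 for the R-spondins, 2.94 for the antagonists and 2.72 for the ligands. It was 2.28 for the TCF/LEF factors, 2.02 for the co-receptors and 1.75 for the Frizzled receptors. For the Dishevelled and Axin genes it was 0.77, beside 1.18 for all genes tested. The secreted members thus had wider ranges over areas than the Dishevelled and Axin genes, in a comparison not matched for level or counting error. The area with the highest level was the same in all 4 sets for 17 of 43 members (39.5%), close to the 42.0% of all genes.

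**Figure D1:**
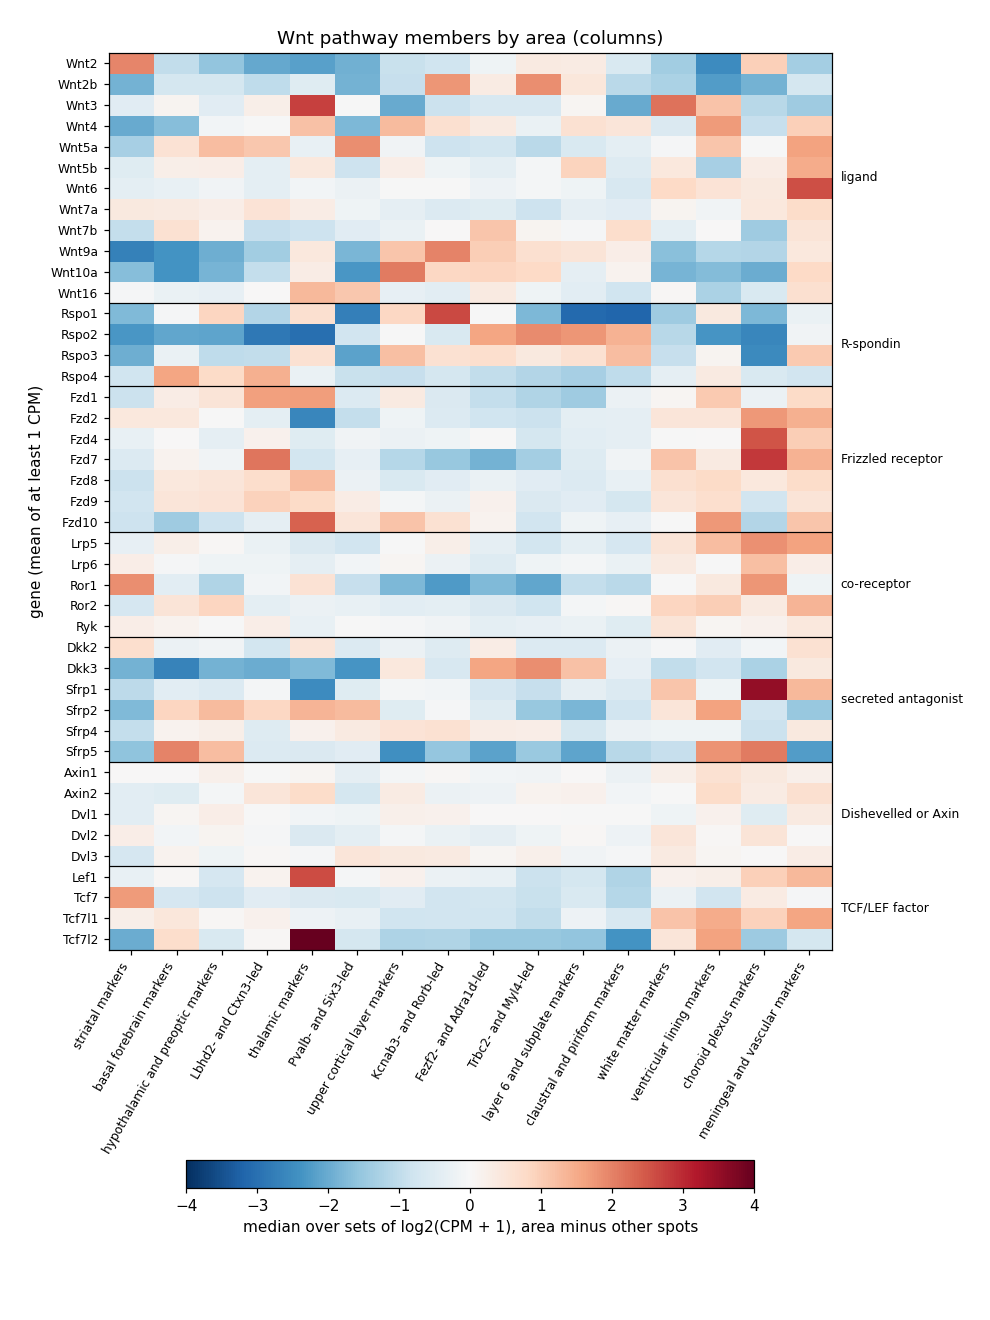
Heat map of 43 members (rows, grouped by role) over 16 areas (columns), where colour is the median over barcode sets of log2(CPM + 1) in the area minus that in all other spots of the same set; the choroid-plexus column leaves out set 2. The thalamic column holds the strongest entry, Tcf7l2, and the rows of Dvl1, Dvl2, Dvl3, Axin1 and Axin2 stay within 0.75 of 0 on the log2 scale.

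The thalamic-marker area had more called members than any other, 8 of 43 (18.6%), beside 2.66% of all genes tested. Ligands, receptors and transcription factors were all among them, namely Wnt3, Wnt4, Wnt16, Fzd1, Fzd8, Fzd10, Lef1 and Tcf7l2. The median log2 difference over the 43 members was -0.04, beside -0.05 over all genes.

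Tcf7l2 encodes a TCF factor that is known to mark thalamic neurons. Its level was 534 CPM in set 1 and 427 CPM in set 4 inside the area, and 18.6 and 16.3 CPM in the other spots. The ratios were 28.6 (95% interval 27.4 to 29.9) and 26.3 (24.7 to 27.9). Both sets were high inside and low outside, with no overlap. Lef1, its relative, reached 74.2 and 56.4 CPM inside against 11.9 and 8.06 CPM outside, ratios of 6.23 (5.76 to 6.74) and 7.0 (6.26 to 7.83). Tcf7, another member of the same family, was not raised, with 1.15 and 1.58 CPM inside against 2.34 and 2.76 CPM outside. The spots outside included the striatal area, and without striatal-marker spots Tcf7 had 1.16 and 1.74 CPM over the sections of sets 1 and 4.

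Of the ligands, Wnt3, which acts through beta-catenin, stood at 53.6 and 76.7 CPM in the thalamic area and at 8.27 and 9.5 CPM outside it. Its ratios were 6.48 (5.90 to 7.10) and 8.08 (7.31 to 8.92). Wnt4 reached 44.6 and 47.6 CPM against 17.2 and 22.5 CPM, ratios of 2.59 and 2.12. Wnt16, a low ligand, had 4.23 and 5.67 CPM inside, from 55 and 61 counts, against 1.02 and 1.84 CPM outside. Wnt9b, the neighbour of Wnt3 whose sequence is shown above, lay below the 1 CPM limit and was picked out after its values were seen. It had 5.62 and 4.93 CPM inside, from 73 and 53 counts, and 0.309 and 1.13 CPM outside, so both neighbours were higher in the same area in both sets.

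Among the receptors, Fzd10 showed the largest ratio there, with 23.2 and 25.5 CPM inside against 3.60 and 4.21 CPM outside (6.44 and 6.05). Fzd1 stood at 46.5 and 58.7 CPM against 13.7 and 17.6 CPM, and Fzd8 at 9.85 and 18.5 CPM against 4.36 and 6.23 CPM. Axin2, a feedback inhibitor that is itself a common target of the pathway and was chosen after its values were seen, did not reach the 2-fold limit. Its level was 53.9 and 49.2 CPM inside against 30.1 and 30.5 CPM outside, ratios of 1.79 (1.65 to 1.94) and 1.61 (1.47 to 1.77). Of the 65 other pathway genes tested, 3 were called in the area. Nkd1, an inducible Dishevelled antagonist, had 60.9 and 127 CPM against 19.3 and 28.8 CPM. Notum, an enzyme that removes the lipid from Wnt proteins, had 6.77 and 7.35 CPM against 2.53 and 2.73 CPM. Vangl1, a planar polarity protein, had 45.6 and 21.8 CPM against 6.39 and 3.41 CPM.

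A different group of members was low in the thalamic area, and 5 of the 43 were 2-fold lower, beside 5.01% of all genes tested. Fzd2, a receptor, had 1.54 and 5.86 CPM inside against 19.8 and 30.8 CPM outside. The antagonist Sfrp1 had 1.31 and 2.05 CPM against 17.7 and 11.3 CPM. Rspo2, Wnt2 and Dkk3 were low there too, Rspo2 with 0.770 and 0.837 CPM against 17.8 and 10.3 CPM. Receptors of the Frizzled family thus split in this area, with Fzd1, Fzd8 and Fzd10 high and Fzd2 low.

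**Figure D2:**
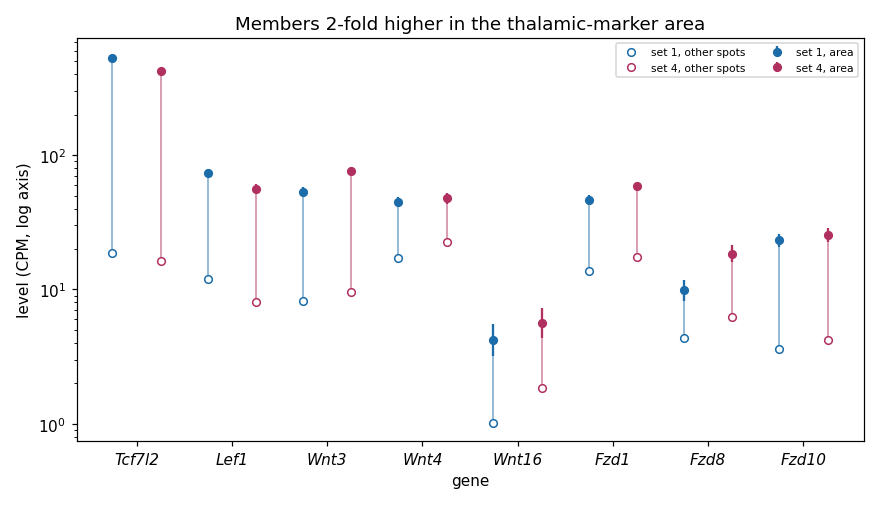
Levels in CPM (log axis) of the 8 called members in the thalamic-marker area (filled) and in all other spots (open) of barcode sets 1 and 4, with exact 95% Poisson intervals as bars. Filled points lie above the open points of the same set, furthest for Tcf7l2 at 534 and 427 CPM.

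These calls depended on how the thalamic area was drawn. Without centring of the sets, or clustered without set 2, the area also took in a cluster led by Ctxn3, Lbhd2 and Prkcd with 269 or 262 spots of set 3, and only 1 member, Fzd1, was then called. With spots assigned by marker score, 64 spots of set 3 entered the area and 1 member, Tcf7l2, was called. In all 3 settings Fzd10 and Wnt4 were lower in the area than outside it in at least 1 set, as were Fzd8 by marker score and Wnt16 by marker score and without centring. Fzd8 was also below the limit without set 3.

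In the striatal-marker area, which held 541 to 867 spots in each set, 2 members were called higher, beside 2.75% of all genes tested. One was Wnt2, a ligand known for roles in vessels and dendrites. It had 21, 26.5, 21.6 and 17.2 CPM in sets 1 to 4 inside the area and 4.74, 6.08, 7.24 and 3.36 CPM outside, ratios between 2.99 (2.71 to 3.29) and 5.12 (4.27 to 6.15). Tcf7, the TCF factor best known from T cells, was the other, with 6.84, 6.79, 5.01 and 7.94 CPM inside against 1.16, 1.49, 0.852 and 1.74 CPM outside. Its counts inside ranged from 103 to 231 and its ratios from 4.57 to 5.92. For each of these genes the lowest level inside lay above the highest level outside. Tcf7l2 had 7.73, 6.93, 7.38 and 6.86 CPM in the striatal area against 68.7, 10.7, 15.5 and 74.7 CPM outside. The outside spots of sets 1 and 4 included the thalamic area, and Tcf7l2 was not 2-fold lower in every set. With spots assigned by marker score, the upper cortical layer had Tcf7l2 at 5.45, 4.73, 6.08 and 5.40 CPM. Tcf7 was at 0.81, 1.68, 0.87 and 1.16 CPM there, so low Tcf7l2 did not go with high Tcf7 in that layer.

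Ror1, a receptor kinase for Wnt ligands named here after its values were seen, was higher in the striatal area in 3 sets. It had 16.6, 19.5 and 13.5 CPM inside against 3.69, 2.39 and 3.15 CPM outside in sets 1 to 3. Set 4 stood apart with 4.70 CPM inside, from 61 counts, against 3.66 CPM outside, a ratio of 1.28 (0.957 to 1.70) beside 4.28 to 8.16 in the other sets. One other pathway gene was called there, Kremen1, a receptor for Dkk proteins, with 60.3, 55.1, 56.7 and 51.3 CPM against 24.2, 20.1, 19.5 and 19.4 CPM.

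More members were low in the striatal area than high. Of the 43, 10 were 2-fold lower in all 4 sets, beside 5.87% of all genes tested, and the median log2 difference was -0.66 over the members and -0.10 over all genes. The 10 were Dkk3, Rspo1, Rspo2, Rspo3, Sfrp2, Wnt2b, Wnt4, Wnt5a, Wnt9a and Wnt10a, all of them secreted. The lowest ratio belonged to the ligand Wnt9a, with 0.681, 0.866, 0.658 and 1.39 CPM inside against 9.89, 11.5, 10.0 and 13.4 CPM outside. Dkk3, a divergent member of the Dickkopf family that is abundant in cortex, had 54.1, 81.2, 48.0 and 63.8 CPM against 179, 307, 191 and 232 CPM. Rspo2 had 3.35, 2.18, 2.69 and 2.62 CPM against 19.7, 22.7, 18.5 and 10.2 CPM. Wnt4 had 5.30, 4.54, 5.15 and 7.25 CPM against 22.6, 25, 25.6 and 28.5 CPM. In each of these 4 genes the highest striatal level lay below the lowest level outside. The other spots of this comparison include the cortical areas whose values follow.

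**Figure D3:**
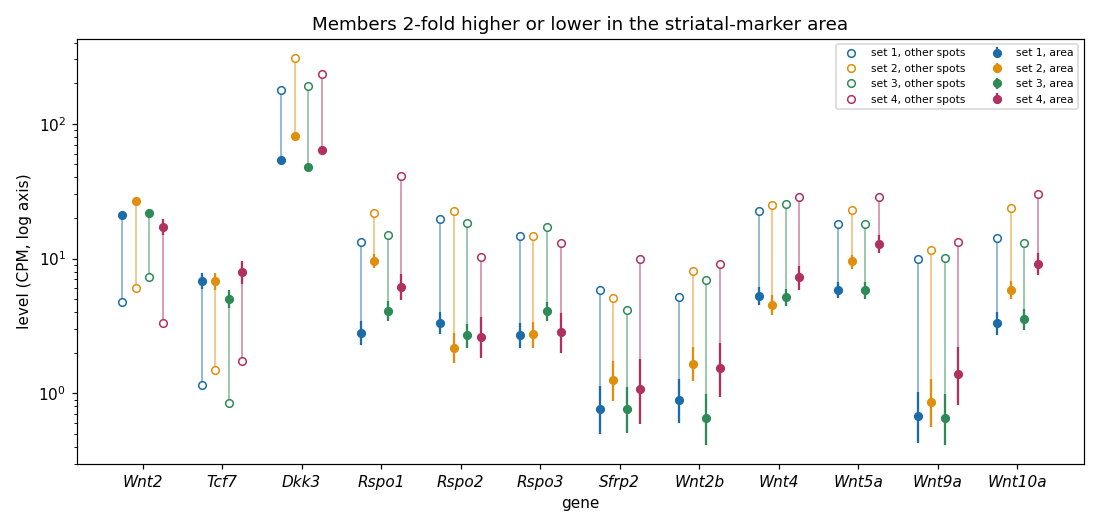
Levels in CPM (log axis) of 12 members in the striatal-marker area (filled) and in all other spots (open) for each of the 4 barcode sets. Wnt2 and Tcf7 have filled points above open ones in every set, and Wnt9a has the widest gap the other way, from at most 1.39 CPM inside to at least 9.89 CPM outside.

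The R-spondins, which bind Lgr receptors and Rnf43 or Znrf3, were called in different areas, Rspo1, Rspo2 and Rspo3 in cortical or claustral ones and Rspo4 outside them. Rspo1 was called in the Kcnab3- and Rorb-led area, where 3 of 43 members were called beside 1.39% of all genes. It had 61.2, 91.1 and 53.9 CPM there in sets 1 to 3 against 9.0, 13.4 and 9.40 CPM outside, ratios of 6.80, 6.81 and 5.73. In the other cortical areas of those sets it was at 20.6, 20.9 and 22.3 CPM in the upper-layer-marker area, at 11.2, 12.9 and 13.2 CPM in the Fezf2- and Adra1d-led area and at 2.80, 4.85 and 3.57 CPM in the Trbc2- and Myl4-led area. The order of these 4 areas was the same in sets 1, 2 and 3. The layer 6-marker area had 0.50 to 3.27 CPM over the 4 sets. Rspo1 was not limited to cortex. Its median log2 difference over sets was 0.845 in the hypothalamic and preoptic area, without a call, beside 0.836 in the upper-layer-marker area. Of the 7 areas held by all sets, choroid plexus left out, the hypothalamic and preoptic area had its highest level in all 4 sets.

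Rspo2 had its calls in other cortical areas than Rspo1. It was called in the Fezf2- and Adra1d-led area, in the Trbc2- and Myl4-led area and in the layer 6-marker area, each of which had 2 of 43 members called, beside 0.574%, 1.09% and 0.755% of all genes. Its levels were 44.7, 47.5 and 29.5 CPM in the first of these, 56.5, 47.0 and 45.3 CPM in the next, and 47.2, 45.6, 57.6 and 40.6 CPM over the 4 sets in the layer 6-marker area. The call in the Fezf2- and Adra1d-led area was lost with a minimum of 2000 counts per spot and without set 2. Where Rspo1 was highest, Rspo2 was at 10.6, 14.7 and 8.03 CPM. The layer 6-marker area was led by Ccn2, Cplx3 and Nxph3, genes known from the subplate layer.

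Rspo3 was called in the claustral, endopiriform and piriform area, where it was the 1 member of 43 called, beside 0.421% of all genes. It had 25.4, 30.7, 34.9 and 24.3 CPM there against 12, 10.5, 13.2 and 10.7 CPM outside, ratios of 2.12 to 2.93. This call was near the limit and was lost with a minimum of 2000 counts per spot, at resolution 1.2, with areas by marker score, and without set 1 or set 4. Rspo4 was called in the Lbhd2- and Ctxn3-led area, with 4.45 and 6.42 CPM in sets 2 and 3 against 1.53 and 1.25 CPM. In the basal-forebrain area it had 3.38, 7.17 and 11.6 CPM in sets 1, 3 and 4 against 0.834, 1.14 and 1.28 CPM, while set 2, with only 34 spots and 2 counts, had 1.76 against 1.68 CPM. Each R-spondin was therefore called in a different set of areas, although the areas where they were high overlapped. In the claustral area the median log2 difference over sets was 1.38 for Rspo2, which was not called there, and 1.22 for Rspo3. Rspo3 also had medians of 1.19 in the upper-layer-marker area and 1.03 in the meningeal and vascular area, without a call.

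**Figure D4:**
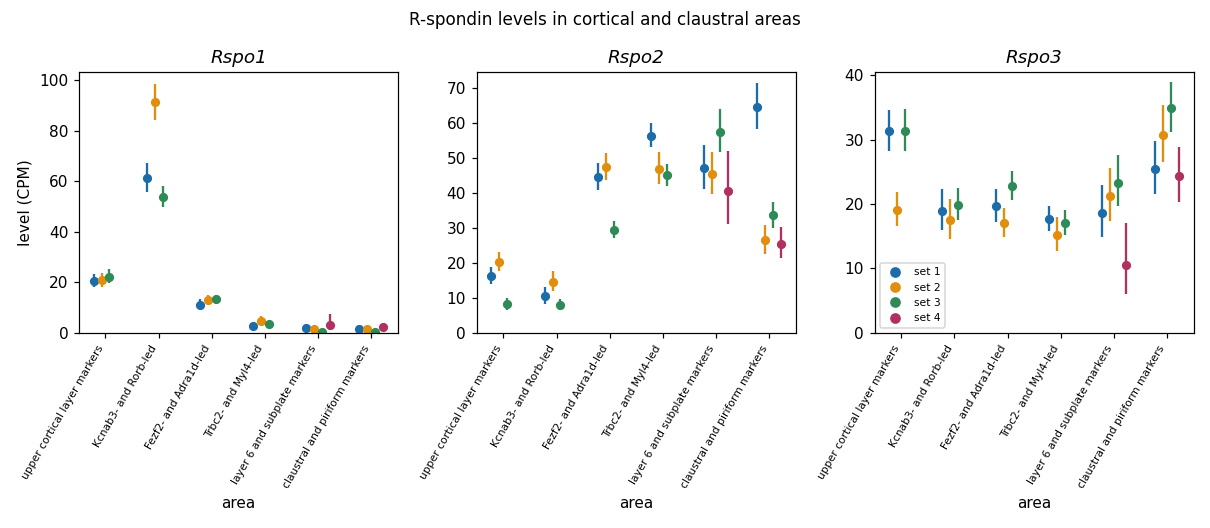
Levels in CPM (linear axis from 0) of Rspo1, Rspo2 and Rspo3 in cortical and claustral areas, with 1 point for each barcode set that held the area and exact 95% Poisson intervals. Rspo1 is highest in the Kcnab3- and Rorb-led area (53.9 to 91.1 CPM), whereas Rspo2 is at 8.03 to 14.7 CPM there and at 45.3 to 56.5 CPM in the Trbc2- and Myl4-led area.

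Several ligands marked the cortex as well. Wnt10a, Wnt4 and Wnt9a were the 3 of 43 members called in the upper-layer-marker area, beside 1.35% of all genes. Wnt10a, a beta-catenin ligand, had 48.4, 63.9 and 37.6 CPM there in sets 1 to 3 against 9.33, 14.4 and 9.0 CPM, ratios of 4.17 to 5.18. Its chromosomal neighbour Wnt6 was called in another area, the meninges. Wnt4 had 43.7, 39.6 and 56.8 CPM in the upper-layer area against 17.4, 17.5 and 18.6 CPM, and both Wnt4 and Wnt9a fell short of the 2-fold limit when the sets were not centred. Wnt4 also missed it at resolution 0.4, with a minimum of 2000 counts per spot, with areas by marker score and without set 3.

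Wnt9a was higher still in the Kcnab3- and Rorb-led area, with 39.3, 29.5 and 28.3 CPM against 6.75, 7.22 and 6.39 CPM. Wnt2b joined it there with 15.9, 16.2 and 18.1 CPM against 3.88, 5.74 and 4.6 CPM. Set 4 held none of these cortical areas with 30 spots, apart from the layer 6-marker and claustral areas, and had clusters of its own in their place. In its Cux2- and Prdm8-led cluster of 313 spots, Rspo1 was at 92.3 CPM, Wnt10a at 77.5 CPM and Rspo2 at 2.72 CPM. In its Arc- and Hs3st2-led cluster of 476 spots, Rspo1 was at 14.9 CPM, Wnt10a at 40.2 CPM and Rspo2 at 27.3 CPM. The 2 R-spondins thus also differed in opposite directions between these clusters of set 4.

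Dkk3 was the member called together with Rspo2 in all 3 areas where Rspo2 was called. It had 410, 658 and 393 CPM in the Fezf2- and Adra1d-led area against 136, 193 and 132 CPM, and 466, 632 and 461 CPM in the Trbc2- and Myl4-led area. Its layer 6-marker levels were 327, 553, 335 and 475 CPM against 150, 233, 154 and 204 CPM, a call that was lost at resolution 0.4 and without set 3. The basal-forebrain area stood at the other end with 29.5, 31.6, 22.6 and 47.4 CPM. Wnt7b, a ligand for brain vessels and dendrites with the most counts of all ligand members, was called nowhere, although it reached 93.3, 105 and 77.5 CPM in the Fezf2- and Adra1d-led area, ratios of 2.18, 2.25 and 1.67. Of the other pathway genes, Dkkl1, a Dickkopf-like protein, was called in that area and in the Kcnab3- and Rorb-led one. Frzb, a secreted Frizzled-related antagonist, was called in the upper-layer area, with 40.3, 88.8 and 74.0 CPM against 6.90, 21.7 and 16.3 CPM.

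Below the cortex and outside the striatum, the antagonist Sfrp5 was the only called member of the basal-forebrain area and of the hypothalamic and preoptic area, beside 0.552% and 1.71% of all genes. In the basal-forebrain area it had 23.6, 18.5, 20.03 and 34.1 CPM against 5.88, 6.37, 3.88 and 7.02 CPM, ratios of 2.90 to 5.16. In the hypothalamic area it had 15.6, 25.8, 10.4 and 20.9 CPM against 6.20, 3.13, 4.58 and 7.97 CPM. The hypothalamic call was lost under TMM and RLE scaling, at resolution 0.4, without centring and without set 2. Cortical levels of Sfrp5 were low, at 0.164, 0.477 and 0.870 CPM in the upper-layer area. Gpc3, a cell-surface proteoglycan that binds Wnt and Hedgehog proteins, was the pathway gene called in the hypothalamic area, with 32.8, 51.0, 52.5 and 59.1 CPM against 6.10, 12, 8.60 and 8.05 CPM.

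The Pvalb- and Six3-led area, held by sets 1 and 4 with 61 and 91 spots, had 2 of 43 members called, beside 1.59% of all genes. Wnt5a, the main ligand of the beta-catenin-independent branch, had 58.1 and 87.8 CPM there against 14.7 and 24.5 CPM. Sfrp2, a secreted antagonist, had 13.1 and 20.6 CPM against 4.68 and 8.33 CPM. Both sets were higher inside than outside for both genes.

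The Lbhd2- and Ctxn3-led area, held by sets 2 and 3, had 2 of 43 members called, Fzd1 and Rspo4, beside 2.04% of all genes. Fzd1 was alike in both sets, with 41.7 and 41.3 CPM against 13.3 and 12 CPM. Fzd7, a receptor of beta-catenin signalling, was not alike. It had 8.02 CPM in set 2, from 45 counts, and 123 CPM in set 3, from 1439 counts, against 5.76 and 7.71 CPM outside. A Fzd7 count was found in 32 of 140 spots of set 2 (22.9%, 95% interval 16.2 to 30.7) and in 184 of 261 spots of set 3 (70.5%, 64.6 to 76.0), at median totals of 40118.5 and 42555 counts per spot. Leading genes of the area moved with it, since Ctxn3 had 3.74 CPM in set 2 and 395 CPM in set 3, Ebf3 2.49 and 135 CPM, and Eomes 6.77 and 106 CPM. Lbhd2, at 298 and 388 CPM, and Prkcd, at 366 and 308 CPM, were high in both. The part of this difference in make-up in the Fzd7 result was not tested.

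White matter had 1 member of 43 called (2.33%), the ligand Wnt3, beside 5.61% of all genes. It had 39.4, 35.6, 27.7 and 42.0 CPM in sets 1 to 4 against 9.77, 4.50, 4.36 and 16.3 CPM, ratios between 2.57 and 7.92. The call was lost at resolution 0.4, with areas by marker score and without set 1. Among the 65 other pathway genes 8 were called there. Nkd1 had 71.3, 88.5, 51.9 and 103 CPM against 19.1, 21.4, 11.8 and 37.6 CPM, and Draxin, an axon guidance protein that can block Lrp6, had 11.7, 8.05, 29.1 and 17.6 CPM against 1.11, 1.28, 1.59 and 1.66 CPM. Lrp4, a receptor related to Lrp5 and Lrp6, had 44.9, 36.0, 51.9 and 34.7 CPM against 15, 14.5, 13.4 and 14.3 CPM. Wnt3 and Nkd1 were thus high both in white matter and in the thalamic area.

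The ventricular-lining area, held by sets 3 and 4 with 42 and 43 spots, had 7 of 43 members called, beside 8.78% of all genes, the highest background of any area. Wnt4 had 86.6 and 67.3 CPM there against 20.8 and 25.1 CPM, and Tcf7l1, a TCF factor that mostly represses its targets, had 23.9 and 43.6 CPM against 7.53 and 15.7 CPM. Sfrp2, Sfrp5, Fzd10, Lrp5 and Wnt5a were the other calls, from 10 to 44 counts each. Of the other pathway genes Musk, a receptor kinase with a Frizzled-like domain, had 76.9 and 128 CPM against 1.60 and 1.85 CPM. Without centring 3 of the members were called, and with areas by marker score 2. Wnt4 without centring, and Fzd10 under both settings, were then lower in the area than outside it in at least 1 set. Lrp5 and Wnt5a were below the limit under TMM and RLE scaling.

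In the choroid-plexus area, the epithelium that makes cerebrospinal fluid, 4 members were called over all 4 sets, beside 4.04% of all genes. These were Sfrp1, Sfrp5, Fzd2 and Lrp5, of which Lrp5 lost its call under TMM and RLE scaling and without set 4. Without set 2, whose spots lacked the markers, 7 were called, beside 6.96% of all genes, with Fzd4, Fzd7 and Ror1 added. Sfrp1 had 147, 109 and 58.8 CPM in sets 1, 3 and 4 against 10.2, 8.69 and 9.76 CPM, and in set 2 it had 70.8 against 11.1 CPM. Fzd4, a receptor also known from vessels, which was picked out with its values in view, had 48.2, 40.1 and 40.0 CPM in sets 1, 3 and 4 and 9.49 CPM in set 2. Fzd7 had 44.0, 48.3 and 58.8 CPM in the same 3 sets and 8.63 CPM in set 2. Sfrp1 was therefore high in all 4 sets, whereas Fzd4 and Fzd7 were high in the 3 with choroid markers.

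The meningeal and vascular area had 5 of 43 members called, beside 3.25% of all genes. Wnt6 had the largest ratios, with 4.71, 19.7, 6.60 and 14.9 CPM against 0.382, 1.11, 0.426 and 1.34 CPM, ratios of 11.1 to 17.7 from 9 to 55 counts. Wnt6 reached the 1 CPM limit only through these spots, since its mean over sets without them was below it, so it had to be high here to be counted among the 43. Wnt5a had 36.7, 82.6, 61.0 and 61.4 CPM against 15.6, 17.6, 14.6 and 25.9 CPM. Its close relative Wnt5b, whose promoter stretch with a TCF/LEF core is shown above, had 11, 22.2, 15.2 and 17.4 CPM against 3.15, 5.32, 4.89 and 6.12 CPM. The co-receptor Lrp5 had 14.1, 26.1, 10.6 and 25.7 CPM against 4.56, 5.46, 4.11 and 6.72 CPM. Lrp5 was below the limit with areas by marker score. Fzd10 was called at the limit, and it lost the call under TMM and RLE scaling, at resolution 0.4, with areas by marker score and without any 1 of the sets. Of the 65 other pathway genes 9 were called in this area. They included Notum, with 9.43, 21.5, 15.8 and 13.3 CPM against 2.78, 3.42, 2.20 and 3.14 CPM, and Camk2a, a kinase of excitatory neurons, with 3330 to 5386 CPM against 904 to 1416 CPM. The part of neurons in these spots in the members' levels was not tested.

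The Dishevelled and Axin genes had the lowest median range over areas of all roles. Dvl1, a Dishevelled protein that passes the signal on from Frizzled, had 60.9, 78.4, 64.4 and 86.5 CPM over the whole sections, and striatal ratios of 0.789, 0.756, 0.742 and 0.744. Dvl3 had 69.5, 70.1, 55.9 and 77.5 CPM. The co-receptors with the most counts were Lrp6 and Ryk, while Lrp5, Ror1 and Ror2 had wider ranges over areas. Lrp6 had 58.3, 58.8, 49.99 and 56.1 CPM and striatal ratios of 1.08, 1.23, 1.19 and 1.22, although it had 143, 82.0, 110 and 106 CPM in the choroid-plexus area. Ryk, an atypical receptor kinase, had 50.4, 33.6, 47.3 and 28.4 CPM, and its striatal ratio was 1.2, 1.21, 1.17 and 1.2. Sets 1 and 3 were above sets 2 and 4 for Ryk, whereas its ratio between areas was near equal in all 4. Wnt7b had 46.3, 53.5, 49.7 and 58.8 CPM over the whole sections.

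Between barcode sets, whole-section levels of most members differed by less than 2-fold, taken as a difference of 1 in log2(CPM + 1). Of the 43 members, 3 were 2-fold apart between sets 1 and 2 (7.2% of all genes), 4 between sets 1 and 3 (0.828%) and 3 between sets 1 and 4 (7.45%). Sets 2 and 3 had 1 member apart (4.11%), sets 2 and 4 had 3 (1.15%) and sets 3 and 4 had 7 (5.82%). In all, 8 members were apart in at least 1 pair, Fzd7, Fzd10, Rspo1, Sfrp2, Tcf7l1, Tcf7l2, Wnt3 and Wnt10a. The members' share was furthest above that of all genes for the pairs 3 with 4 (16.3%) and 1 with 3 (9.30%). These sections differ in which areas they hold, and no pair of sets can be read as a pair of genotypes.

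For 3 of these members the whole-section difference was smaller without the thalamic-marker spots. Tcf7l2 had 56.9, 9.70, 13.8 and 65.0 CPM over the whole sections, with sets 1 and 4 high. Without the thalamic-marker spots it had 18.6, 9.70, 13.7 and 16.3 CPM. Wnt3 went from 11.6, 5.24, 4.88 and 17.5 CPM to 8.27, 5.24, 4.88 and 9.5 CPM, and Fzd10 from 5.05, 2.37, 1.78 and 6.73 CPM to 3.60, 2.37, 1.78 and 4.21 CPM. Sets 1 and 4 stayed above sets 2 and 3 for all 3 genes, by less than before. By marker score Fzd10 was also higher in sets 1 and 4 in the upper cortical layer, with 10.8, 3.59, 3.89 and 7.64 CPM. In the striatal area by marker score it had 1.66, 2.30, 1.33 and 1.78 CPM, highest in set 2. The part of the thalamic area in these differences was not tested. Fzd7 had 7.07, 5.87, 15.9 and 6.37 CPM over the whole sections and 6.99, 5.76, 7.71 and 6.37 CPM without the Lbhd2- and Ctxn3-led spots.

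Rspo1 had 11.2, 18.6, 12.7 and 36.2 CPM. Set 4 was still highest, and 2-fold apart from sets 1 and 3, at 28.1 CPM without its Cux2- and Prdm8-led cluster. Wnt10a had 12.1, 19.1, 11 and 27.1 CPM, and set 4 was no longer 2-fold apart from any set at 19.8 CPM without that cluster. Only set 4 held that cluster, so sets 1 to 3 kept their upper-layer-marker areas for Rspo1 and Wnt10a alike. By marker score, Wnt10a in the upper cortical layer had 38.0, 54.3, 27.1 and 72.9 CPM, highest in set 4. The part of the cluster in these differences was not tested. Tcf7l1 had 7.12, 15.6, 7.64 and 15.9 CPM, high in sets 2 and 4. Sfrp2 had 4.89, 4.11, 3.46 and 8.69 CPM, and without the thalamic-marker spots it had 3.97, 4.11, 3.46 and 7.76 CPM. Set 4 stayed highest, and sets 3 and 4 fell just under the limit on log2(CPM + 1). Without the hypothalamic and preoptic spots instead, sets 3 and 4 stayed apart, at 2.98 and 7.55 CPM.

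**Figure D5:**
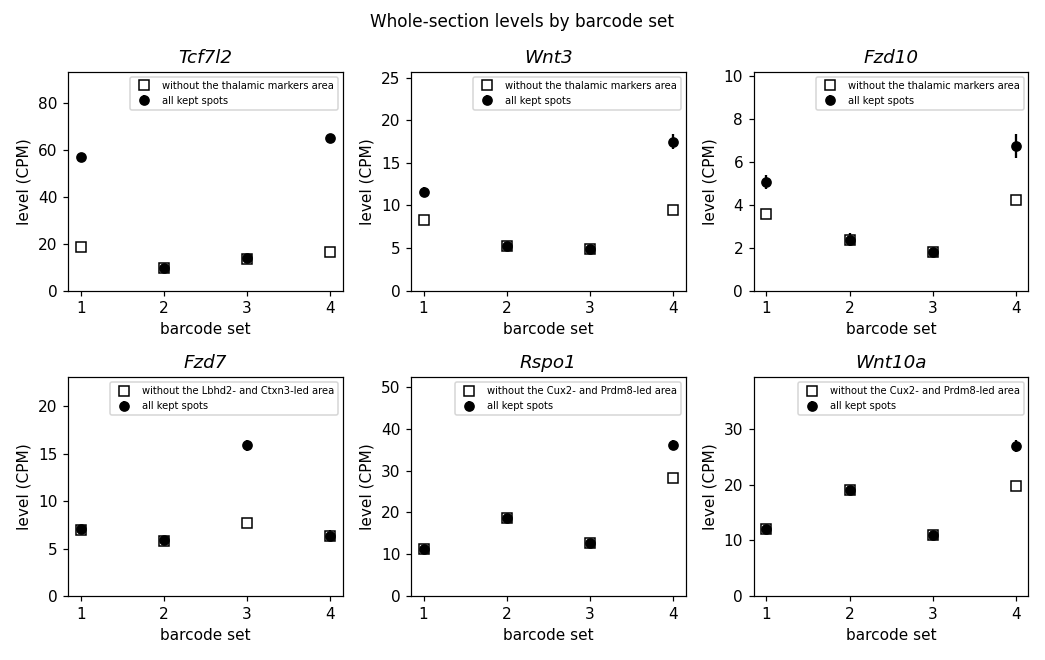
Whole-section levels in CPM of Tcf7l2, Wnt3, Fzd10, Fzd7, Rspo1 and Wnt10a in barcode sets 1 to 4, for all kept spots (filled, with exact 95% Poisson intervals) and after 1 named area was left out (open squares). The cluster left out for Rspo1 and Wnt10a was held by set 4 only. Tcf7l2 in sets 1 and 4 drops from 56.9 and 65.0 CPM to 18.6 and 16.3 CPM without the thalamic-marker spots, and Fzd7 in set 3 from 15.9 to 7.71 CPM without the Lbhd2- and Ctxn3-led spots.

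Sets 2 and 4 were both above sets 1 and 3 for 22 of the 43 members tested (51.2%) and for 30.2% of all genes with at least 1 CPM. Among genes below that limit it held for 8 of the 9 members and for 88.2% of 5626 genes. Sets 2 and 4 also had the fewest counts per spot, with means of 39054 and 27551 beside 57205 and 47963 in sets 1 and 3. The part of depth in these levels was not tested.

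Within the striatal area, where 38 members reached 1 CPM, the members apart numbered 3 between sets 1 and 2 (5.44% of all genes there), 0 between sets 1 and 3 (0.618%), 3 between sets 1 and 4 (6.83%), 3 between sets 2 and 3 (4.15%), 1 between sets 2 and 4 (1%) and 3 between sets 3 and 4 (5.22%). Ror1 was apart in set 4 from each of the other sets, at 4.70 CPM against 13.5 to 19.5 CPM. Wnt5a, with 5.87, 9.53, 5.81 and 12.9 CPM, and Wnt10a, with 3.32, 5.82, 3.55 and 9.18 CPM, were apart between set 4 and sets 1 and 3. Rspo1, with 2.81, 9.59, 4.09 and 6.17 CPM, and Tcf7l1, with 8.65, 21.3, 8.35 and 17 CPM, were apart between set 2 and sets 1 and 3. Sfrp5 and Dkk2 were apart once each, both higher in set 2. Wnt2 and Tcf7, the members called in the striatal area, were not 2-fold apart between any pair of sets there.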

How the data were processed

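Visium CytAssist for FFPE, version 2, was run on coronal brain sections of 4 mice, per the labels' protocols. The values used are raw counts per gene and spot, in 1 table that the authors deposited. Space Ranger and Seurat are named, with no version, in the submitters' processing notes, and the genome build, probe set and spot filters are not given in the sources used here. Spot names end in 1 of 4 numbers that match no label, so no genotype test was run.

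The members, gene lists and area markers were chosen with earlier results of these data known. Spots under 500 counts were left out (1 of 12602). Before clustering, spots were scaled to 10000 counts, log-transformed and centred per gene within each set. The 2000 most variable genes, without the members, the other pathway genes, Celsr genes and sex-linked genes, gave 30 principal components and 15 neighbours for Leiden clustering at resolution 0.8, seed 0 (scanpy 1.11.5, leidenalg 0.10.2, scikit-learn 1.9.0). This gave 27 clusters. A cluster joined an area where at least 3 of its 20 leading genes, by fold of mean CPM with 10 CPM added, were markers of that area. Counts were then summed per area and set. Named are members called in an area, members 2-fold apart between sets with a mean of at least 5 CPM, the 2 members of each role with the most counts, and up to 10 other pathway genes called in the most areas. Other named genes were chosen after their values were seen. Of 69 other pathway genes listed, 68 were in the table. Log2 values use a pseudocount of 1 CPM, which understates changes of low genes. Poisson intervals, Clopper-Pearson intervals for shares of spots and conditional binomial intervals for ratios are exact, at 95% (scipy 1.17.1). Mean counts per spot were 27551 to 57205.

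The alternatives were other resolutions, no centring, other minimums, another pseudocount, thinned counts, each set left out, and TMM and RLE scaling (edgeR 4.0.16 in R 4.3.3). The calling step was run on simulated Poisson counts with chosen genes raised in an area. That run was a check of the code only, since it held the areas fixed. Other steps used Python 3.11.15, numpy 2.4.6 and matplotlib 3.10.9.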

Additional observations from a re-analysis of the deposited data

How the results depend on the processing

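The limits are few sections, 1 library for each barcode set, and areas that differ between sections. TMM scaling moved 109 and RLE scaling 103 of the members' whole-section levels beyond their counting intervals, with TMM factors of 0.927 to 1.10. They shifted the median of all genes by up to -0.28 in white matter and choroid plexus and by -0.26 in the ventricular lining on the log2 scale, and the numbers of members called stayed within 1.5 times in 15 of 16 areas under each. The exception was the hypothalamic area, with 0 members called under either. At resolution 0.4 the counts were 2 in the basal forebrain, 1 in layer 6, 0 in the hypothalamic area and 0 in white matter, and at resolution 1.2 they were 2 in the basal forebrain and 10 in the choroid plexus. Without centring they were 9 in the choroid plexus, 0 in the hypothalamic, 12 in the meningeal, 1 in the thalamic, 1 in the upper cortical and 3 in the ventricular area. With 2000 counts per spot as the minimum they were 2 in the basal forebrain, 0 in the claustral and 2 in the hypothalamic area. With a minimum of 5 CPM they were 1 in the Lbhd2- and Ctxn3-led, 3 in the meningeal and 1 in the striatal area, since fewer genes were tested. Areas by marker score, added after the data were seen, gave 2 in the basal forebrain, 10 in the choroid plexus, 3 in the meningeal, 1 in the thalamic, 2 in the ventricular and 0 in the white matter area. The choroid-plexus count over 3 sets, 7, was added then too, as was the count of members lower in the striatal area, which was 9 to 11 in every alternative run. Otherwise the cause of these changes was not tested.

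When 1 barcode set was left out of the clustering, the counts were 2 in the basal forebrain, 3 to 7 in the choroid plexus, 1 to 2 in the claustral, layer 6 and hypothalamic areas, 1 to 8 in the thalamic, 2 to 5 in the upper cortical and 0 to 2 in the white matter area. The thalamic count could not be had without set 1 or set 4, which leaves 1 set with the area, and some areas called by leading genes had no matching cluster in an alternative and gave no value. Over all alternatives, differences of single members stayed at the limit or above in 467 cases, fell below it in 60 and reversed in 12. The 467 include 46 each with no filter, with a pseudocount of 0.5 CPM and with a minimum of 5 CPM, which left the areas unchanged. Members under 5 CPM count there as kept, although they were then not tested. By marker score 19 stayed, 13 fell below and 5 reversed, and without centring 20 stayed, 10 fell below and 5 reversed. The 12 reversals, given as the lowest log2 difference over sets, lay in the thalamic and ventricular areas. In the thalamic area Fzd10 was at -1.03 without centring, at -1.02 to 2.39 with 1 set left out (the lowest without set 2) and at -0.49 by marker score, Fzd8 was at -0.60 by marker score, and Wnt16 was at -0.0047 without centring and -0.077 by marker score. Wnt4 was at -0.10 without centring, at -0.094 to 1.04 with 1 set left out (the lowest without set 2) and at -0.27 by marker score. In the ventricular area Fzd10 was at -0.26 without centring and -0.34 by marker score, and Wnt4 at -0.028 without centring.

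Between barcode sets, a pseudocount of 0.5 CPM gave 5 members apart for sets 1 and 2, and 3 members for sets 2 and 3. The other 34 alternatives kept these counts within 1.5 times. No paired analysis was possible because the barcode endings are not tied to labelled samples, so no sample has a replicate number in the counts table. For the same reason the edgeR and DESeq2 tests of genotype were not run.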
